A study of Mus musculus with 8 samples.

Results

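Bile acids are made from cholesterol in hepatocytes, either by the classic pathway, which starts with 7-alpha-hydroxylation by Cyp7a1, or by acidic and alternative pathways that start with oxidation of the side chain. They are conjugated to taurine or glycine, pumped into bile, reabsorbed in the ileum and taken up again from portal blood. The nuclear receptor FXR (Nr1h4) senses bile acids and induces the corepressor SHP (Nr0b2), and together with the gut hormone FGF15 acting on Fgfr4 and Klb it represses synthesis. The genes described here are 30 genes of this cycle, listed by name and matched by symbol and Entrez identifier to 47 probes of the array, out of 26866 gene symbols and 56605 probes in all. They fall into 7 roles: classic synthesis, acidic and alternative synthesis, side-chain shortening and conjugation, receptors and FGF15 signalling, uptake from blood, export into bile, and export back into blood.

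The data are 8 one-colour Agilent arrays of liver RNA from female NFS/sld mice, a strain used to model primary Sjögren's syndrome. The Tx group (n = 4) had the thymus removed on day 3 after birth and was sampled 8 weeks after surgery, and the nonTx group (n = 4) of the same strain and sex kept its thymus. The labels give neither the age of the nonTx mice nor a sham operation, and they call the replicates independent without saying what was independent, so a p-value here reflects only how far these 8 samples spread, which may be technical. All 8 arrays lay on 1 slide scanned once, with nonTx in the first row of positions and Tx in the second, so that slide row and group cannot be told apart. The signal at the 75th percentile of an array ran from 225 to 330, and 51.1% to 57.1% of probes per array were well above background. Values below called levels are log2 intensities minus the array's own 75th percentile, averaged over 4 arrays with their SD. Differences are Tx minus nonTx with the standard error of the limma fit, and all probes tested were adjusted together by Benjamini-Hochberg.

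Some facts of the whole series bear on these genes. The 10 control transcripts spiked into the labelling gave, after scaling, log2 differences of 0.06 to 0.37 towards Tx, and the share of all tested genes with a higher mean in Tx was 56.3% as reported, 72.2% with scaling to the median, 48.5% with quantile normalization and 45.2% with scaling to bright probes. Hepatocyte markers were present on every array: 9 of 10 listed were tested, their summed level (on the linear scale, in units of the 75th percentile) was 3120 to 3560 in Tx and 3150 to 3540 in nonTx, and the median of their log2 differences was 0.04. Of these, Ttr lay below every nonTx array on all 4 Tx arrays, with a difference of -0.37 ± 0.07 (adjusted p = 0.185 by limma). Tx replicate 4 stood apart by the salivary gene Bpifa2, at an intensity of 79600 against 3.01 to 163 on the other 7 arrays, a gene looked at after its values were seen. Of the 11 clock genes well above background on every array, 8 were higher in Tx, with a median of 0.24. Tx replicate 1 stood apart in several of them, noticed after the values were seen: Arntl (BMAL1) was at a level of -1.63 there and between 0.71 and 1.46 on the other 7 arrays, and Dbp was at 6.35 there and between 3.62 and 5.17 elsewhere. Cyp7a1 is known as a gene of daily rhythm, and the part of the clock genes in the results below was not tested. In bulk liver RNA, fewer cells of a type and less RNA per cell cannot be told apart.

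No gene of the bile acid cycle passed the test over all probes. Of the 30 genes, 29 were tested, each well above background on all 8 arrays, and 0 had an adjusted p under 0.05 by limma; among all 16495 tested genes the share called was likewise 0%, while 4085 of 30955 probes had an unadjusted p under 0.05. At an unadjusted p under 0.05, 2 genes were higher in Tx (Cyp27a1 and Cyp39a1), which is 6.9% of the 29 against 8.65% of all tested genes, and 1 was lower (Nr0b2), 3.45% against 5.25%. The same 2 higher genes were the ones whose groups did not overlap, 6.9% of the 29 against 5.11% of all tested genes; 0 lay wholly lower, against 2.95%. In sum 18 genes had a higher mean in Tx and 11 a lower one (62.1% higher, against 56.3% of all tested genes), with a median log2 difference of 0.08 against 0.03. These shares are near those of all tested genes. For 28 of the 29 genes the 95% interval of the difference excluded a change of 2-fold in either direction, and for 20 it excluded 1.5-fold; Cyp8b1 was the gene whose interval passed 2-fold.

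**Figure D1:**
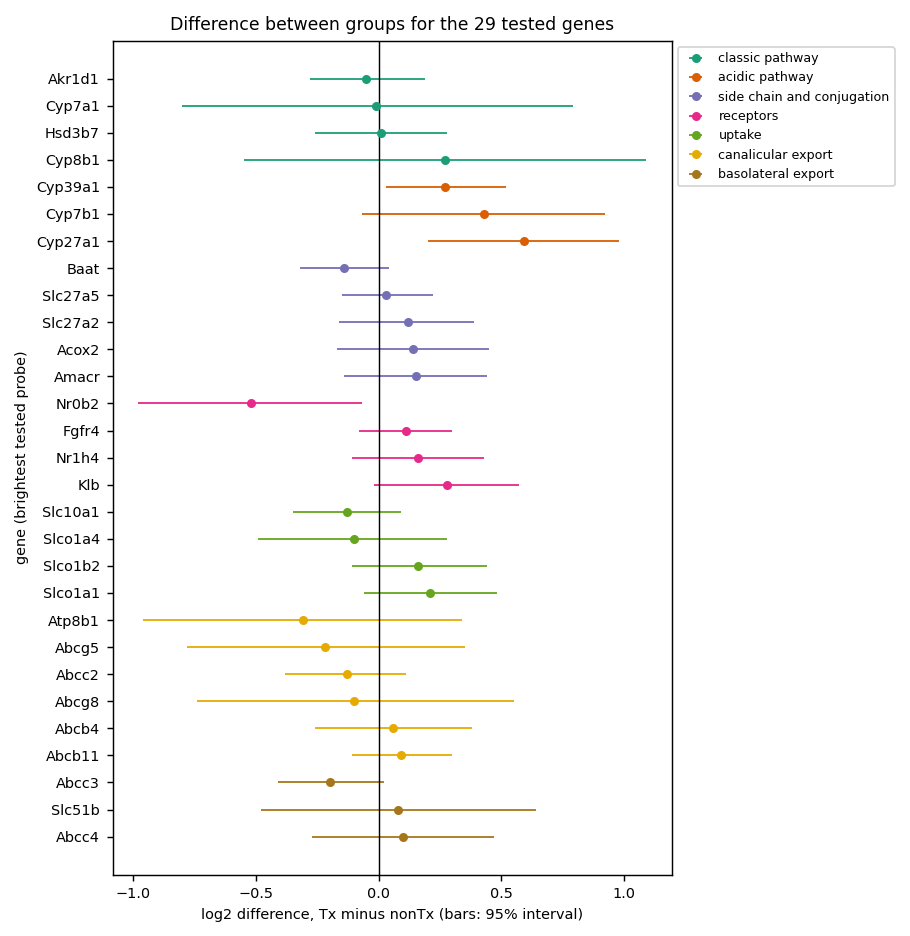
Log2 difference (Tx minus nonTx, x axis) of the 29 tested genes, ordered by role on the y axis, with points at the limma estimate and bars for the 95% interval (4 arrays per group). The intervals of Cyp27a1 (0.20 to 0.98), Cyp39a1 (0.03 to 0.52) and Nr0b2 (-0.98 to -0.07) lie on 1 side of 0, before adjustment over all probes.

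The classic pathway showed wide spread between arrays and no difference between the groups beyond it. Cyp7a1, the rate-limiting enzyme of this pathway, had levels, in the order of the replicates, of 1.89, 0.84, 1.52 and 2.12 in nonTx. Its Tx levels were 2.29, 1.24, 2.04 and 0.76. The highest and the lowest array were both Tx, and the groups overlapped throughout. The means were 1.58 ± 0.71 (SD, n = 4) in Tx and 1.59 ± 0.56 in nonTx, a difference of -0.01 ± 0.36 (SE; 95% interval -0.80 to 0.79; adjusted p = 0.993). A second, much dimmer probe of Cyp7a1 was well above background on 3 Tx arrays but on only 1 nonTx array, so its difference is not read here. Cyp8b1, the 12-alpha-hydroxylase that sets how much cholic acid is made, was at 2.24, 1.39, 2.31 and 0.90 in nonTx and at 1.08, 2.13, 2.56 and 2.16 in Tx. Here 3 of the 4 Tx arrays were at 2.13 or above and Tx replicate 1 was low, beside a nonTx group that spanned nearly the same range. The difference was 0.27 ± 0.37 (95% interval -0.55 to 1.09, adjusted p = 0.752). It was 0.57 without Tx replicate 1 and 0.00 without nonTx replicate 4. The enzymes that follow were steadier. Hsd3b7, the 3-beta-hydroxysteroid dehydrogenase of the second step, differed by 0.01 ± 0.12. Akr1d1, the 5-beta-reductase, differed by -0.05 ± 0.11 on its brighter probe and 0.17 ± 0.19 on the other.

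Cyp7a1 and Cyp8b1 were also among the most variable genes of the array within groups. The SD within groups was 0.64 for Cyp7a1 and 0.66 for Cyp8b1, above that of 94.6% and 95% of the tested genes. The median over the 29 genes was 0.20, close to 0.19 over all tested genes. Baat and Slc27a5, enzymes of conjugation, were the steadiest at 0.08 each, so equal numbers of arrays gave unequal precision for these genes.

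**Figure D2:**
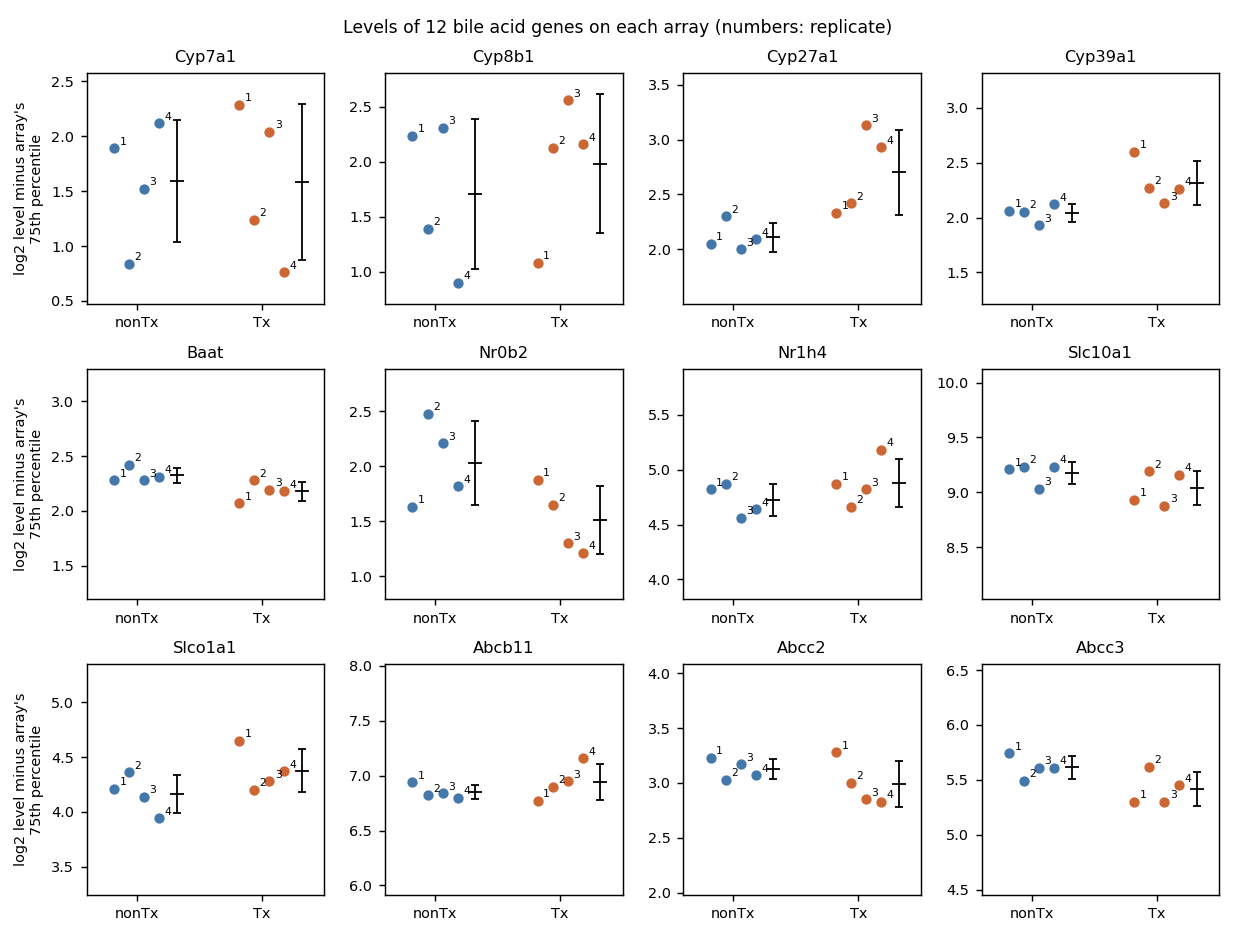
Levels (log2 units above the 75th percentile of the same array, y axis) of 12 genes in nonTx and Tx liver, with 1 point per array numbered by replicate, and the mean with its SD as a bar; every panel spans the same range of log2 units. Cyp7a1 and Cyp8b1 spread widely in both groups, the 4 Tx points of Cyp27a1 and Cyp39a1 lie above the nonTx points by gaps of 0.03 and 0.02, and Abcb11 and Baat stay within narrow ranges.

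The acidic and alternative pathways had the highest median difference of the 7 roles, 0.43, with 3 of 3 genes higher in Tx. Cyp27a1, the mitochondrial sterol 27-hydroxylase that starts the acidic pathway and also oxidises the side chain in the classic one, was at 2.05, 2.30, 2.0 and 2.09 in nonTx. In Tx it was at 2.33, 2.42, 3.13 and 2.93. All 4 Tx arrays were above all 4 nonTx arrays, by a gap of only 0.03, and Tx replicates 3 and 4 were the high ones. The difference was 0.59 ± 0.17, or 1.5-fold (95% interval 1.15 to 1.97), with an unadjusted limma p of 0.0071 and an adjusted p = 0.296. Leaving out any 1 array gave between 0.44 (without Tx replicate 3) and 0.71 (without Tx replicate 1). The spike-in RNAs differed by 0.06 to 0.37. With scaling to the hepatocyte markers, an alternative chosen after seeing the data, the Cyp27a1 difference was 0.62. Over all settings tried this difference lay between 0.41 and 0.71, with an unadjusted limma p between 0.00195 and 0.0251 and an adjusted p between 0.134 and 0.516.

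Cyp39a1, the 7-alpha-hydroxylase of 24-hydroxycholesterol, was at 2.06, 2.05, 1.93 and 2.12 in nonTx and at 2.60, 2.27, 2.13 and 2.26 in Tx. The groups were separated by 0.02, and Tx replicate 1 was the highest. The difference was 0.27 ± 0.11 (1.21-fold, adjusted p = 0.348 by limma), within the range of the spike-in differences, and it was 0.18 without Tx replicate 1. The unadjusted p was under 0.05 in 17 of the 22 other settings tried. Cyp7b1, the oxysterol 7-alpha-hydroxylase that acts after Cyp27a1, differed by 0.43 ± 0.22 (adjusted p = 0.417) and its second probe by 0.26 ± 0.18. Its level was 4.02 in Tx replicate 2 and 2.66 to 3.36 on the other 7 arrays, and without Tx replicate 2 the difference was 0.22. Cyp7b1 is known to be higher in male than in female liver in mice. Of the 10 listed genes with male-biased expression in liver that were well above background on all 8 arrays, 9 were higher here in the Tx group, at a median of 0.39. Of 12 female-biased genes 12 were higher with a median of 0.31, where 56.3% of all tested genes were higher. At an unadjusted limma p under 0.05, 7 of all 12 male-biased genes (58.3%) were higher. Among them, the dim Cyp4a12a and Cyp4a12b were each well above background on 3 Tx arrays and 1 nonTx array. They were tested only through the Tx group, where they are high, so this share is not read against that of all genes. At the same threshold, 4 of 12 female-biased genes (33.3%) were higher, against 8.65% of all tested genes. Of either list 0 had an adjusted p under 0.05. The part of these sex-biased genes in the Cyp7b1 values was not tested.

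Genes of side-chain shortening and conjugation differed little, with 4 of 5 higher in Tx and differences from -0.14 to 0.15. Baat, which joins bile acids to taurine or glycine, had the smallest p of this role. It was at 2.28, 2.42, 2.28 and 2.31 in nonTx and at 2.07, 2.28, 2.19 and 2.18 in Tx, where 3 of 4 arrays were below the whole nonTx group and Tx replicate 2 reached its lower edge. The difference was -0.14 ± 0.08 (adjusted p = 0.447), and a second Baat probe gave 0.01 ± 0.11. Slc27a5, the bile acid coenzyme A ligase that acts before Baat, differed by 0.03 ± 0.08. Slc27a2, a very long-chain acyl-CoA synthetase, differed by 0.12 ± 0.12. The peroxisomal enzymes Amacr, a racemase of side-chain acids, and Acox2, an oxidase of branched chains, differed by 0.15 ± 0.13 and 0.14 ± 0.14. Amacr was lowest on Tx replicate 1, at 6.01 against 6.53 to 6.59 on the other 3 Tx arrays.

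Among the receptors, Nr0b2 was the gene with a negative difference. SHP, its product, is a corepressor that FXR induces and that dampens Cyp7a1 and Cyp8b1. Its nonTx levels were 1.63, 2.48, 2.21 and 1.82, and its Tx levels 1.88, 1.65, 1.30 and 1.21. The 2 highest arrays were nonTx and the 2 lowest Tx, while nonTx replicate 1 lay below Tx replicates 1 and 2, so the groups overlapped. The difference was -0.52 ± 0.20, or 1.44-fold lower, with an unadjusted limma p of 0.0283 and an adjusted p = 0.346. It ranged from -0.66 (without nonTx replicate 1) to -0.37 (without nonTx replicate 2) when 1 array was left out, and from -0.66 to -0.37 over all settings tried, with an unadjusted p between 0.00954 and 0.0859, under 0.05 in 17 of 22, and an adjusted p between 0.165 and 0.548. Cyp7a1 and Cyp8b1, whose transcription SHP is known to repress, differed by -0.01 ± 0.36 and 0.27 ± 0.37 on the same arrays. The part of Nr0b2 in these values was not tested.

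Nr1h4, which encodes FXR, was at 4.82, 4.87, 4.56 and 4.64 in nonTx and at 4.87, 4.66, 4.82 and 5.18 in Tx, so that only Tx replicate 4 stood clear of the nonTx range. The difference was 0.16 ± 0.12 (95% interval -0.11 to 0.43), and a dimmer second probe gave 0.24 ± 0.23. Leaving out 1 array moved it between 0.06 (without Tx replicate 4) and 0.24 (without Tx replicate 2). Fgfr4, the hepatic receptor of FGF15, differed by 0.11 ± 0.08 on its brightest probe and by 0.02 and -0.02 on its others. Its coreceptor Klb (beta-klotho) differed by 0.28 ± 0.13 (adjusted p = 0.392), with 3 of 4 Tx arrays above every nonTx array. The hormone Fgf15, made in the ileum, stayed below that detection limit on all 8 liver arrays.

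The sequence just before the Nr0b2 start is shown because this promoter is a known meeting point of nuclear receptors, and Nr0b2 is the receptor gene with the negative difference. It holds the 250 bases before the start in RefSeq, build GRCm38.p6, chr4:133553126-133553375, plus strand. Capitals mark TCAAGG, the core that the receptor LRH-1 (Nr5a2) binds, and the E-box CACGTG, searched on both strands.
Nr0b2: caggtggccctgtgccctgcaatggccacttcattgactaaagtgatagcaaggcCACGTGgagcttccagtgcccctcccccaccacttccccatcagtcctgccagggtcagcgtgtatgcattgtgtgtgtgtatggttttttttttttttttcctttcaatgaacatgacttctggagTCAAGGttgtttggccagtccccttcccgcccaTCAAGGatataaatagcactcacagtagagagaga
TCAAGG occurs 2 times, 68 and 35 bases before the start, and CACGTG 1 time, and the matches do not overlap. Of 32851 promoter windows of this length, 12.5% hold TCAAGG and 6.02% hold CACGTG. A match is a description of the letters only.

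Uptake carriers on the blood side of the hepatocyte differed by -0.13 to 0.21. Slc10a1 (NTCP), the sodium-dependent carrier that takes up most conjugated bile acids, was at 9.21, 9.23, 9.03 and 9.23 in nonTx and at 8.93, 9.19, 8.88 and 9.16 in Tx. Tx replicates 1 and 3 were below every nonTx array and the other Tx arrays were within the nonTx range. The difference was -0.13 ± 0.10 (95% interval -0.35 to 0.09, adjusted p = 0.541), and a second, dimmer Slc10a1 probe gave 0.07 ± 0.08. Slco1a1, an organic anion carrier, had the smallest p of this role, at 4.21, 4.36, 4.14 and 3.94 in nonTx and 4.65, 4.20, 4.28 and 4.37 in Tx. The groups overlapped, with Tx replicate 1 highest, and the difference was 0.21 ± 0.12 (adjusted p = 0.45). The related carriers Slco1b2 and Slco1a4 differed by 0.16 ± 0.12 and -0.10 ± 0.17.

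Of 6 genes of export into bile, 2 were higher in Tx and 4 lower, with a median of -0.11. Abcb11 (BSEP), the canalicular pump for bile salts, was at 6.94, 6.82, 6.84 and 6.80 in nonTx and at 6.77, 6.90, 6.95 and 7.16 in Tx. The whole nonTx group lay within 0.14, and Tx replicate 4 was the highest array and Tx replicate 1 the lowest. The difference was 0.09 ± 0.09, and its 95% interval as a fold ran from 0.927 to 1.23. Abcb4, the phospholipid floppase that protects bile ducts from bile salts, differed by 0.06 ± 0.14, with its other probes at 0.15 ± 0.16 and -0.05 ± 0.20. Abcc2 (MRP2), which exports conjugated organic anions, had the smallest p of this role. It was at 3.23, 3.03, 3.17 and 3.07 in nonTx and at 3.28, 3.00, 2.85 and 2.83 in Tx. The latter held both the highest and the 3 lowest values, for a difference of -0.13 ± 0.11 (adjusted p = 0.587). Atp8b1, the aminophospholipid flippase of the canalicular membrane, differed by -0.31 ± 0.29. Its Tx values split into -0.14 on replicate 1 and -1.46 to -1.35 on the other 3, and without Tx replicate 1 the difference was -0.62.

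Abcg5 and Abcg8, the half-transporters that together secrete cholesterol into bile, varied between arrays more than between groups. Abcg5 was at 5.60, 5.83, 5.75 and 6.70 in nonTx and 6.14, 5.94, 5.21 and 5.72 in Tx, a difference of -0.22 ± 0.25. Abcg8 was at 3.71, 3.65, 3.70 and 4.65 in nonTx and 4.27, 3.95, 3.05 and 4.05 in Tx, a difference of -0.10 ± 0.29. For both genes nonTx replicate 4 was the highest of the 8 arrays, Tx replicate 1 the next and Tx replicate 3 the lowest. Relative to its own mean over the 8 arrays, Abcg5 stood 0.83 higher on nonTx replicate 4 and Abcg8 0.77 higher. On Tx replicate 3 Abcg5 was at -0.65 and Abcg8 at -0.83 from the mean. Tx replicate 4 was the array where they parted, at -0.14 for Abcg5 and 0.17 for Abcg8. This pair was singled out after its values were seen.

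These genes lie head to head, which is why the stretch between their start sites is shown. The 109 bases between the start sites of Abcg5 (read leftwards) and Abcg8 (read rightwards) are chr17:84683012-84683120 of GRCm38.p6, plus strand, from RefSeq. Capitals mark TTATC, the reverse of the GATA factor core GATAA.
Abcg5-Abcg8: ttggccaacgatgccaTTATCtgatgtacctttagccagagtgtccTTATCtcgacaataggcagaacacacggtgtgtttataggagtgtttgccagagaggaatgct
Both strands were searched and 2 matches were found, which do not overlap each other. Of the 32851 promoter windows, 9.36% hold the core in either direction in the 109 bases before the start. TCAAGG and CACGTG have 0 matches in these letters. Nothing about a factor's binding is drawn from the matches.

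Export back into blood rests on Abcc3, Abcc4 and the dimer of Slc51a and Slc51b. Abcc3 (MRP3) was at 5.74, 5.49, 5.61 and 5.61 in nonTx and at 5.30, 5.62, 5.30 and 5.45 in Tx. In Tx 3 of 4 arrays were below every nonTx array, and Tx replicate 2 was within the nonTx range. The difference was -0.20 ± 0.10 (adjusted p = 0.402), while a dimmer second probe gave 0.05 ± 0.17. Abcc4 (MRP4) differed by 0.10 ± 0.17. Slc51b (OST-beta) was well above background on all 8 arrays and differed by 0.08 ± 0.25, from -0.92 to 0.33 in nonTx and from -0.54 to 0.03 in Tx. Its partner Slc51a (OST-alpha) was the untested gene: its 2 probes were not well above background on any of the arrays, and the intensity of the brighter was at most 3.76, so no fold is given.

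**Figure D3:**
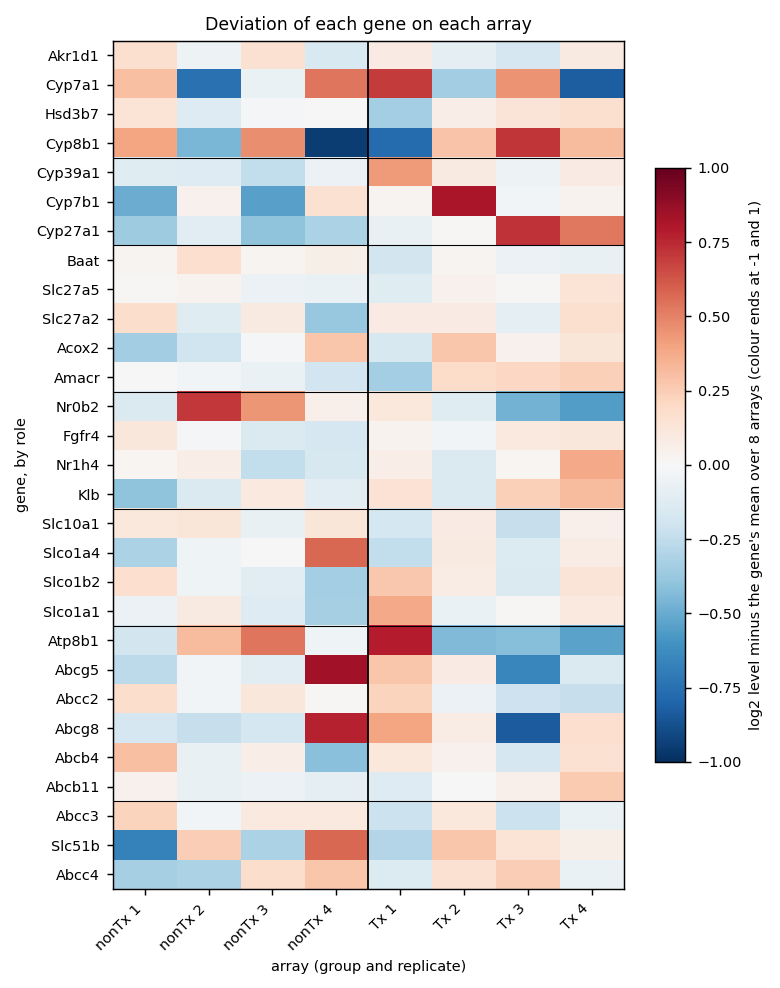
Deviation of the 29 tested genes (y axis, grouped by role) from their own mean over the 8 arrays (x axis), in log2 units by colour. No array is high or low for all genes: the median deviation of the 29 genes ran from -0.05 to 0.1 per array, while Cyp7a1, Cyp8b1, Abcg5, Abcg8 and Atp8b1 swing strongly from array to array.

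Other genes of bile acid handling were taken from a second list of 32 names. On the array 31 were found and tested. By limma 0 had an adjusted p under 0.05, and at an unadjusted p under 0.05 there was 1 higher in Tx and 0 lower, or 3.23% and 0% against 8.65% and 5.25% of all tested genes. A higher mean was found for 24 and a lower one for 7 (77.4% higher, against 56.3%), with a median of 0.09. The higher gene was Slc10a2 (ASBT), the apical sodium-dependent bile acid carrier known from the ileum and from bile duct epithelium, where it takes bile acids back from the lumen. The nonTx levels of Slc10a2 were 0.46, 1.36, 0.38 and 1.16 and the Tx levels 2.84, 2.21, 1.54 and 1.86, well above background on all 8 arrays. All 4 Tx arrays lay above all 4 nonTx arrays, by 0.18 at the nearest, with Tx replicate 1 the highest. The difference was 1.27 ± 0.30, or 2.41-fold (95% interval 1.53 to 3.81), with an unadjusted p of 0.00164 and an adjusted p = 0.263. A second Slc10a2 probe gave 1.28 ± 0.28 on the same RNA, also without overlap between the groups. Leaving out any 1 array kept it between 1.03 (without Tx replicate 1) and 1.46 (without Tx replicate 3), and over all settings tried the adjusted p lay between 0.136 and 0.498.

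Markers of bile duct epithelium had lower means in Tx, with arrays that differed. Of 10 markers of bile duct epithelium, 5 were tested and 0 were higher in Tx, and the median of their log2 differences was -0.21. Their summed level was 6.50 to 12.5 in Tx and 8.72 to 9.80 in nonTx. Krt19, a keratin of bile ducts, differed by -0.16 ± 0.44 and Sox9, a ductal transcription factor, by -0.36 ± 0.25. Krt7 was well above background on 1 Tx and 3 nonTx arrays, and without it the median was -0.18. On Tx replicate 1, where Slc10a2 was highest, the 5 tested markers had their highest median deviation of the 8 arrays, 0.25, and Krt19 and Spp1, a secreted phosphoprotein of duct cells, were at their highest, -1.44 and 3.47. Of the ducts' defining markers Cldn4 was well above background on 0 arrays and Epcam on 1 array of each group. Of the gut markers beside Slc10a2, Cdx2 and Fgf15 were well above background on 0 arrays, and Fabp2, a fatty acid binding protein that liver arrays also detected, differed by 0.14 ± 0.24. The part of these cells in the Slc10a2 values was not tested.

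**Figure D4:**
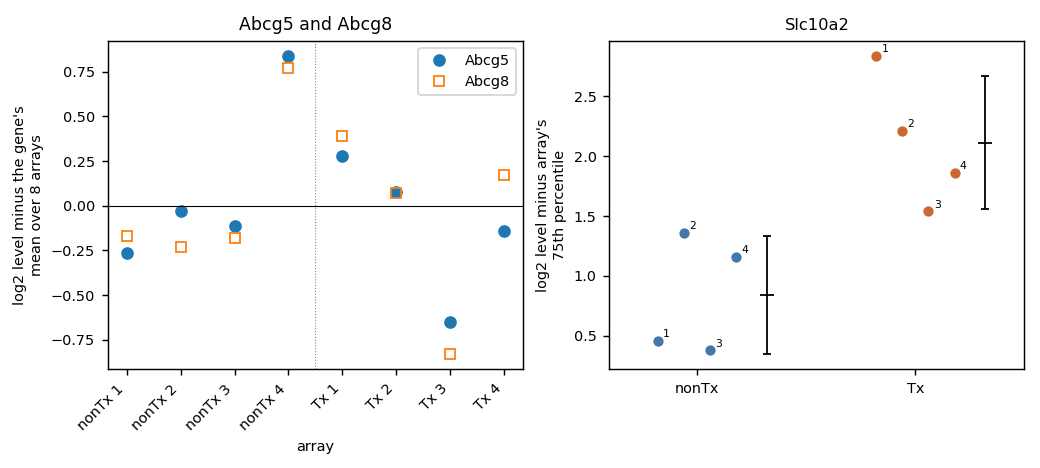
Left, the log2 level of Abcg5 and Abcg8 on each array (x axis) minus the gene's mean over the 8 arrays; right, the level of Slc10a2 per array with the mean and its SD (4 arrays per group, numbered by replicate). Both half-transporters peak on nonTx replicate 4 and dip on Tx replicate 3, and the Slc10a2 points of Tx (1.54 to 2.84) lie above those of nonTx (0.38 to 1.36).

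Of the other genes of the second list, the highest difference was that of Nr1i2 (PXR), a xenobiotic receptor that bile acids can activate, named here after its value was seen. It was 0.41 ± 0.24 (adjusted p = 0.456 by limma), with 3 Tx arrays above and Tx replicate 3 below every nonTx array.

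**Figure D5:**
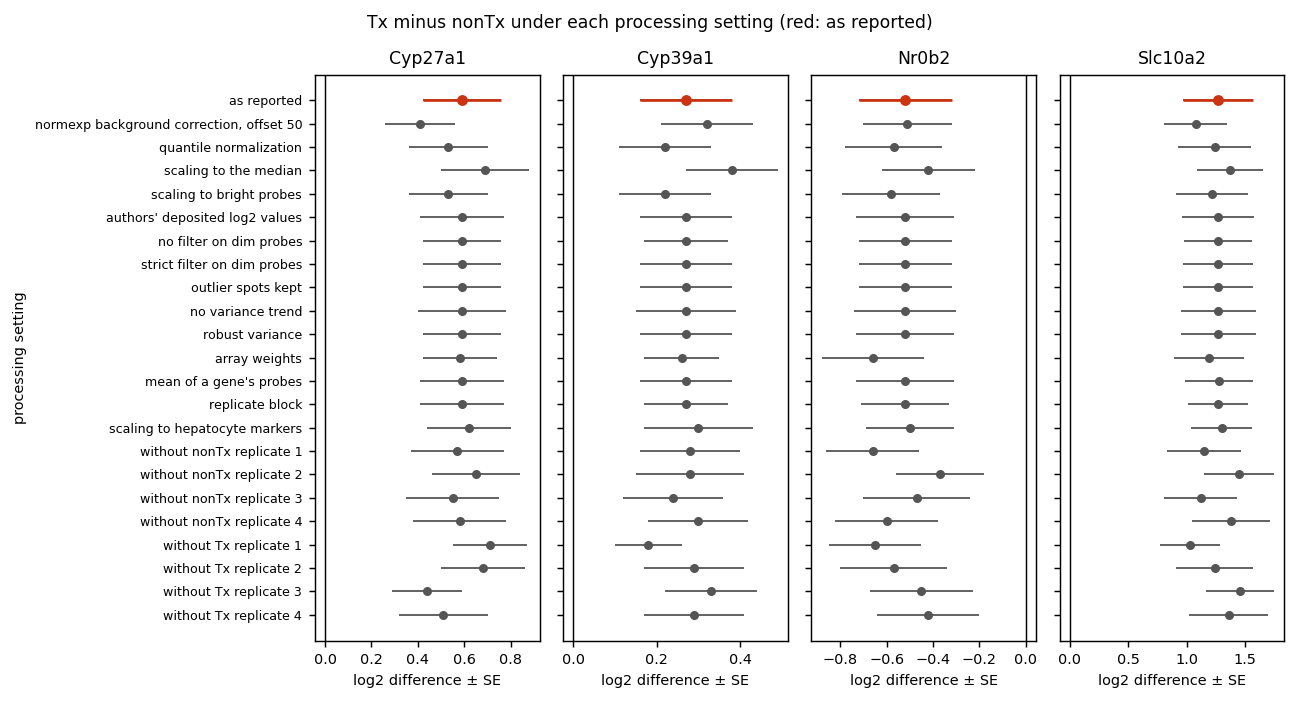
Log2 difference (Tx minus nonTx, x axis) with its standard error for Cyp27a1, Cyp39a1, Nr0b2 and Slc10a2 under each processing setting (y axis), the reported one in red. The sign stays the same under every setting drawn, and the size ranges from 0.41 to 0.71 for Cyp27a1, 0.18 to 0.38 for Cyp39a1, -0.66 to -0.37 for Nr0b2 and 1.03 to 1.46 for Slc10a2.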

How the data were processed

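Per the file headers, spots were read with Feature Extraction 10.7.1.1, which gave background-subtracted, spatially detrended intensities; the submitters' processing notes name version 9.1. Per the labels, labelling started from 0.5 ug of RNA. The authors' deposited table repeats these intensities and adds log2 values, which taking off each array's 75th percentile and then each probe's median rebuilt within 0.00161; its deposited fold ratio was not used. The genome build of the headers differs from that of the RefSeq tables, so no gene coordinates are given beyond the promoter table's own.

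Outlier spots (54 to 120 per array) were left out, spots of a probe averaged and log2 intensities scaled to the 75th percentile. A probe was tested when well above background on 3 of 4 arrays of a group with at least 2 values per group (30955 probes, 46 values missing). limma 3.58.1 in R 4.3.3 was used (variance trend, 6 residual degrees of freedom, two-sided, threshold 0.05), and the fit was tested on simulated data. A gene is its brightest tested probe. The precision is limited by the 4 arrays per group. The genes and lists were chosen with earlier results of these data known. Levels on every array are given for Cyp7a1, Cyp8b1, Nr0b2, Nr1h4, Abcb11 and Slc10a1, for genes with an unadjusted p under 0.05 or groups that do not overlap, and for the smallest p of each role. Alternatives were normexp (offset 50, on median signals), 4 other scalings, the authors' log2 values, filters, variance models, array weights, probe means, a replicate block and each array left out.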

Additional observations from a re-analysis of the deposited data

Results flagged for a closer look

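Within groups of 4 arrays, 5 levels lay far from the other 3 by Dixon's ratio at its 95% critical value, out of 58 groups looked at; chance gives about 1 in 20. Cyp7b1 was at 4.02 in Tx replicate 2, with the other Tx arrays between 3.18 and 3.24. Amacr was at 6.01 in Tx replicate 1, with the others between 6.53 and 6.59. Slc10a1 was at 9.03 in nonTx replicate 3, with the others between 9.21 and 9.23. Abcg8 was at 4.65 in nonTx replicate 4, with the others between 3.65 and 3.71. Atp8b1 was at -0.14 in Tx replicate 1, with the others between -1.46 and -1.35.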

How the results depend on the processing

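In every one of the 22 settings tried, 0 of the bile acid genes had an adjusted p under 0.05. Probes called over the whole array, 0 as reported, were 2 with normexp, 6 with scaling to the median, 1 with the authors' log2 values, 1 without a variance trend, 5 with robust variance, 7 with array weights, 1 with the replicate block and 4 with scaling to hepatocyte markers, an alternative chosen after seeing the data. With 1 array left out they ran from 0 to 188, the latter without Tx replicate 2. Genes with an unadjusted p under 0.05, 3 as reported, were 5 with quantile normalization, the replicate block or scaling to hepatocyte markers, 6 with scaling to the median, and 1 (without nonTx replicate 2) to 5 (without Tx replicate 1 or 2) with an array left out. Genes higher in Tx, 18 as reported, were 11 with quantile normalization. Genes whose groups did not overlap, 2 as reported, were 1 with quantile normalization, bright probes or hepatocyte markers, and 2 to 5 with an array left out, the latter without Tx replicate 1 or 2. Smaller groups separate more easily by chance. The shares of all tested genes at these settings are not given here, so these 2 sets of counts are not read as a trait of the bile acid genes. The median difference, 0.08 as reported, was 0.02 with normexp, -0.04 with quantile normalization and 0.18 with scaling to the median; that scaling moved the median of all genes to 0.13.

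The sign of 16 genes held in all 22 settings and that of 13 turned in at least 1, the cause of which was not tested. With quantile normalization Hsd3b7 was at -0.16, Amacr -0.04, Slc27a5 -0.06, Acox2 -0.02, Abcb11 -0.06, Abcb4 -0.11 and Fgfr4 -0.02. With normexp Hsd3b7 and Fgfr4 were at -0.02, and with bright probes Hsd3b7 was at -0.05 and Slc27a5 at -0.02. With scaling to the median Cyp7a1 was at 0.09, Akr1d1 at 0.05 and Abcg8 at 0.00. With probe means Akr1d1 was at 0.06 and Cyp7a1 at 0.40, the latter by taking in a probe well above background on 3 Tx arrays and 1 nonTx array; with array weights Abcg8 at 0.01, and with hepatocyte markers Cyp7a1 at 0.02. With an array left out the difference of 24 of the 29 genes turned, reached 0 or moved by 1.5 times or more; Cyp27a1, Nr0b2, Baat, Abcc3 and Klb moved less. The differences ran from -0.26 to 0.27 for Cyp7a1, -0.04 to 0.13 for Hsd3b7, -0.01 to 0.08 for Slc27a5, -0.07 to 0.17 for Abcb4, -0.22 to 0.07 for Slco1a4, -0.13 to 0.29 for Slc51b, -0.35 to 0.03 for Abcg5 and -0.24 to 0.16 for Abcg8. Same-numbered arrays deviated together with correlations of -0.01 to 0.10, and for 2 of the 4 numbers the same-numbered array was the best match. With so few arrays this cannot decide whether the numbers pair the samples, and the labels do not say so. The replicate block kept 0 of the bile acid genes called. Slide and scan as a block were not run, since there was 1 of each.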

Other observations

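Genes next to the bile acid cycle are given as values. Of 12 genes of cholesterol synthesis, the route to the precursor of bile acids, 12 were higher in Tx, at a median of 0.48 on the log2 scale, but their summed level ranged from 299 to 502 in Tx and from 177 to 536 in nonTx, so the groups overlapped. Of 12 acute phase genes, 9 were higher with a median of 0.31. By limma 0 of them had an adjusted p under 0.05, and 1 gene of each list, higher in Tx, had an unadjusted p under 0.05, 8.33% of each against 8.65% of all tested genes.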
